A study of Homo sapiens with 28 samples.

Results

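The uninduced MYCN line was set against the mock line, its sister derivative of the neuroblastoma cell line SK-N-AS. The 10 arrays were chosen by title alone, out of 28 in the series. SK-N-AS is an established line whose MYCN locus is not amplified. The MYCN line, titled SK-N-AS-tet, carries MYCN under doxycycline control and is represented here by its 3 replicate arrays of time 0. The mock line carries the vector pcDNA6TR, which encodes the tet repressor, and is represented by all of its 7 arrays, 1 at each of times 0, 4, 8, 24, 48, 96 and 192 after doxycycline. The unit of time is not stated. Both lines grew in DMEM with fetal calf serum, and the time 0 array of the mock line is the single mock array that matches the MYCN arrays in time. The labels do not say whether either derivative is a single clone, which promoter drives the transgene or whether replicates are separate cultures, so p-values measure the spread between these arrays, which may be technical.

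Neuroblastoma arises from precursors of the sympathetic nervous system. Its cell lines range between a noradrenergic state, held by transcription factors such as PHOX2A, HAND and GATA family members, and a mesenchymal state marked by PRRX1, TWIST1, vimentin and the Hippo pathway effectors YAP1 and WWTR1. In the tet system a repressor sits on operator sites in the transgene's promoter until doxycycline binds and releases it. The comparison asks which genes differ between the derivatives before induction. Of the mock arrays, 6 were harvested after doxycycline, so the mock array of time 0 was also used alone.

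The values are Affymetrix array signals, linear intensities of 1 probe set for each gene. Differences are log2 signal of the MYCN line at time 0 minus log2 signal of the mock line, and a gene is called where the limma adjusted p was under 0.05. Genes were tested where the mean of both lines' log2 levels reached 3.83, a signal of 14.3. Signals under 14.3 are treated as dim: where the dimmer line lies there, the fold is against 14.3 and is written "at least". Array medians were 13.8, 14.1 and 15.9 on the MYCN line arrays of time 0, against 16.9 to 20.2 on the mock arrays. Pearson correlations of log2 signal over the tested genes were 0.977 to 0.98 among the 3 MYCN line arrays, 0.956 to 0.987 among the mock arrays and 0.875 to 0.909 between the lines. The mock array of time 192 stood apart from the other mock arrays, whose own correlations were 0.98 to 0.987. The spiked hybridisation control bioD read 1544 to 1941 on every array of MYCN line replicates 1 and 2, and 2322 to 2770 on those of replicate 3 and on all mock arrays, so replicate 3 is the only array of time 0 in the MYCN line with the mock arrays' level.

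MYCN itself was already present in the MYCN line before the drug. Its signal was 69.4, 79.2 and 103 on the 3 MYCN line arrays, against 1.6 to 3 on the 7 mock arrays. The groups did not overlap, and the MYCN line was at least 5.81-fold higher. The gene's mean over both lines lay just under the expression filter. Without the filter the log2 difference was 5.13 (SE 0.41, limma adjusted p = 3.54e-07). The other 9 MYCN probe sets read 15.4 or less at time 0 in the MYCN line. MYC, the paralogue of MYCN, averaged 221 ± 88.7 in the MYCN line (SD, n = 3) and 268 ± 23.2 in mock cells (n = 7), a log2 difference of -0.36 that did not pass the test (adjusted p = 0.143). MAX, the shared dimerisation partner, differed by 0.08 (adjusted p = 0.379).

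The lines differed at 4680 of 11865 genes tested (39.4%), 2173 higher in the MYCN line (18.3%) and 2507 lower (21.1%). At least 2-fold differences were called at 1183 genes (9.97%), 390 higher (3.29%) and 793 lower (6.68%). These 2-fold sets were taken by the fitted log2 difference, without the lower bound used for dim signals. For genes dim in either line, the bounded fold may therefore be under 2. At least 8-fold differences were called at 46 genes higher and 118 lower. Of the genes lower by 2-fold or more, 221 were dim in the MYCN line, and of those higher by 2-fold or more, 58 were dim in mock cells. The 3 MYCN line arrays lay wholly above or wholly below all 7 mock arrays at 3851 genes (32.5%), and 3650 genes (30.8% of those tested) were both apart and called. The median difference over all genes was -0.02. With equal array medians it was 0.28, and 4821 of the 6034 calls were then higher in the MYCN line, 79.9% against 46.4% as deposited. Counts of small differences in each direction therefore depend on the scaling, and directions below are for genes whose sign held under it unless stated otherwise.

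**Figure D1:**
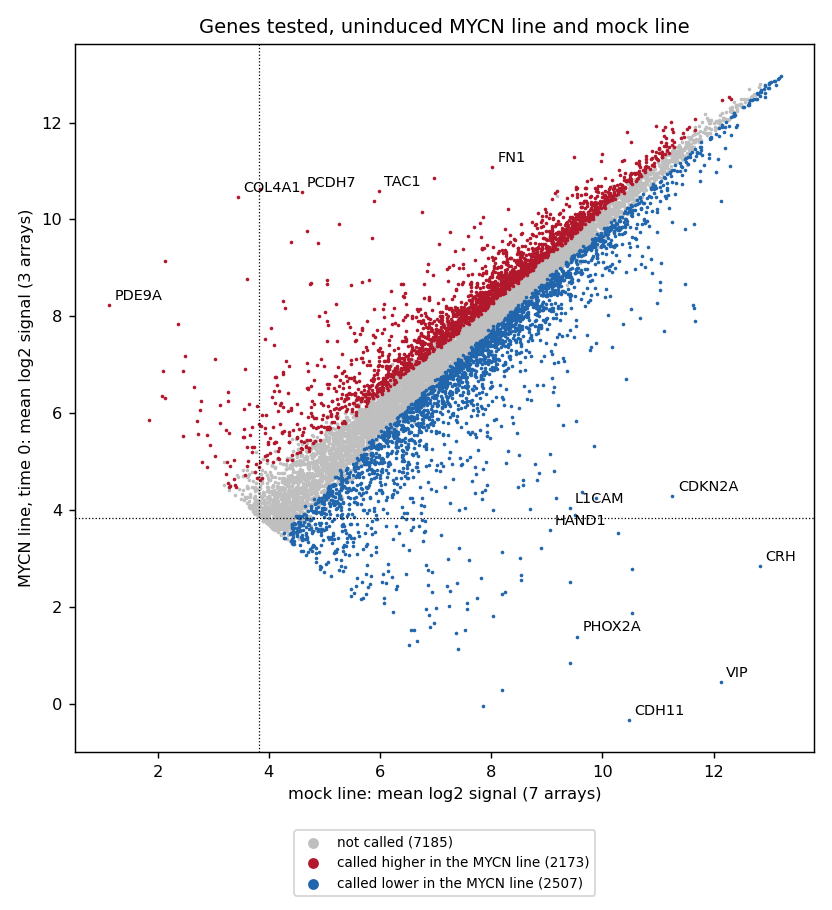
Mean log2 signal of each of the 11865 genes tested, MYCN line at time 0 (vertical axis, 3 arrays) against mock line (horizontal axis, 7 arrays), with the 2173 genes called higher in red, the 2507 called lower in blue and the rest in grey. Dotted lines mark the filter signal of 14.3 (log2 3.83), and of the genes called at 2-fold or more, 221 lower and 58 higher ones lie under it in the dimmer derivative.

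Against the mock array of time 0 alone, 1414 genes were called (11.9%), 5.27% of genes higher and 6.65% lower, in a fit with 2 residual degrees of freedom that takes the lone array to vary like the others. Of the 4680 genes called against all mock arrays, 4385 (93.7%) had all 3 MYCN line arrays beyond the mock time 0 array in the called direction, against 62.9% of all genes tested in their own direction and 66.8% in either direction. Of the 1183 genes with at least 2-fold differences, 1162 (98.2%) did so, and 883 were called against time 0 alone. All 46 genes at least 8-fold higher and all 118 at least 8-fold lower lay beyond it, and 46 and 115 of them were called. The mock time 0 array belongs to both comparisons, so the second is a check by construction and not a separate experiment. Between replicate 3 of the MYCN line and the mock arrays, which share a bioD level, 2390 genes were called (20.1%), 8.51% of genes higher and 11.6% lower, among them 987 of the 1183. With the bioD split as a block over all 28 arrays, 4532 were called (38.2%), 20.5% higher and 17.7% lower, among them 1086 of the 1183.

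The basement membrane collagens COL4A1 and COL4A2, whose chains assemble into type IV collagen, were bright in the uninduced MYCN line and dim or nearly so in its mock counterpart. COL4A1 read 1348, 1191 and 1756 in the MYCN line, against a lowest value of 5.7, a median of 10.2 and a highest value of 23.7 in mock cells. COL4A2 read 1551, 1431 and 1811 in the MYCN line, against 6.6, 16.5 and 24. Every MYCN line array was bright for both genes and every mock array was at or near the dim limit. COL4A1 was at least 99.1-fold higher (log2 difference 7.02, SE 0.35, adjusted p = 2e-09) and COL4A2 was 111-fold higher (6.79, SE 0.32, adjusted p = 9.01e-10), the single gene called at 100-fold or more higher. A second probe set of each gene showed the same split: 578 to 725 against 1.1 to 3.2 for COL4A1, and 420 to 630 against 0.7 to 16.9 for COL4A2. The 2 genes lie head to head and are transcribed away from each other. The stretch between their starts is printed because it is the promoter region they share (RefSeq, GRCh38.p14, chr13:110307158-110307283, plus strand, 126 bases, 80.2% G or C). Capitals mark CCAAT and GGGCGG, searched on both strands. These letters occur in 33.0% and 42.3% of the 27305 RefSeq promoter windows, and a match is a description only. The windows hold 250 bases with a median of 58% G or C, so these shares are not those of stretches like this one.
between COL4A1 and COL4A2: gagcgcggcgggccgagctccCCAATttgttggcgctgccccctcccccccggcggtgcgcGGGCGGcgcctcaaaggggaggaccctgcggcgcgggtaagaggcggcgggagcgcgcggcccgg

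The other genes with the largest higher differences have varied roles. PDE9A, a cyclic GMP phosphodiesterase, read 308, 294 and 301 in the MYCN line, against 1.1 to 13.8 in mock cells with a median of 1.4, at least 21.1-fold higher. TRPA1, an irritant-gated cation channel, read 524, 579 and 595 in the MYCN line, against 0.7 to 10.3, at least 39.7-fold higher. PCDH7, a protocadherin, read 1756, 1230 and 1585 in the MYCN line, against 15.5 to 30.9, 62.5-fold higher. Non-overlapping arrays were a condition for picking these genes, as for COL4A1 and COL4A2, so the gap between the lines' arrays is no separate result. The receptors for chemerin (CMKLR1) and succinate (SUCNR1) were at least 16.2-fold and at least 30.7-fold higher. CTHRC1, a secreted collagen-associated protein, averaged 752 ± 121 in the MYCN line and 22.6 ± 8.43 in mock cells (SD, n = 3 and 7). BST2, the interferon-inducible tetherin, averaged 876 ± 147 in the MYCN line and 31.1 ± 23.3 in mock cells. EDIL3, an integrin-binding matrix protein, was 24.9-fold higher, and the nicotinamide methyltransferase NNMT was 24.8-fold higher. ARAP3, a GTPase-activating protein, and CACNA2D4, a calcium channel subunit, were at least 8.28-fold and at least 10.2-fold higher.

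On the lower side, the neuropeptide precursors VIP and CRH were bright in mock cells and dim in the MYCN line. VIP, vasoactive intestinal peptide, read 0.2, 2 and 6.2 in the MYCN line, against a lowest value of 3725, a median of 4806 and a highest value of 4922 in mock cells. CRH, corticotropin-releasing hormone, read 4, 6 and 15.2 in the MYCN line, against 7044, 7284 and 7597. No mock array came near the MYCN line's range for either gene, but both were picked among genes with non-overlapping arrays. VIP was at least 313-fold lower (log2 difference -11.69, SE 0.67, adjusted p = 7.05e-09) and CRH at least 511-fold lower (-9.99, SE 0.26, adjusted p = 2.71e-12). The fitted log2 differences of such genes rest on signals of a few units and are no measure of size beyond these bounds. CDH11, a mesenchymal cadherin, read 0.5, 1.1 and 0.9 in the MYCN line, against 1302 to 1592 in mock cells, at least 100-fold lower. All 4 of its probe sets showed the split, with at most 6.5 in the MYCN line and at least 47.1 in mock cells. HSD3B1, an enzyme of steroid hormone synthesis, read 7, 4.1 and 1.7 in the MYCN line, against 920 to 1810, at least 105-fold lower. The integrin subunit ITGB8 was at least 47.9-fold lower, the potassium channel subunit KCNK1 at least 20.5-fold and MYCT1 at least 16.3-fold. NSG1, a neuronal endosome protein, was at least 104-fold lower, the synaptic vesicle protein SYT4 at least 87.1-fold, TCEAL7 at least 48-fold, the neuroendocrine transcription factor INSM1 at least 11.9-fold and TMEM108 at least 18.4-fold. In total 6 genes were at least 100-fold lower.

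CDKN2A, the locus of a pair of tumour suppressors that restrain the cell cycle and stabilise p53, was among those 6. It read 15.9, 26.5 and 17.5 in the MYCN line, against 2207, 2532 and 2800 in mock cells at the lowest, the median and the highest array. Its log2 difference was -6.98 (SE 0.13, adjusted p = 5.64e-14), a 126-fold lower level. A second CDKN2A probe set read 0.6 to 6.5 in the MYCN line, against 437 to 628, and stayed at 8.3 or less on all 21 arrays of the MYCN line at every time. The neighbouring genes CDKN2B and MTAP were looked at after these values were seen. One CDKN2B probe set read 0.2 to 0.4 in the MYCN line, against 153 to 228, while the other read 37.5 to 44.6, against 19.2 to 39.8, so its probe sets disagree. For MTAP, the brightest of the 6 probe sets in mock cells read 74.9 to 98.1 in the MYCN line, against 109 to 155, another read 57.6 to 70, against 54.1 to 74.3, and another 77.4 to 92.7, against 46 to 69.7, so these too disagree in direction. The remaining CDKN2A probe set was dim in both lines. MTAP signal was thus present in both lines, while CDKN2A was bright in mock cells alone.

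**Figure D2:**
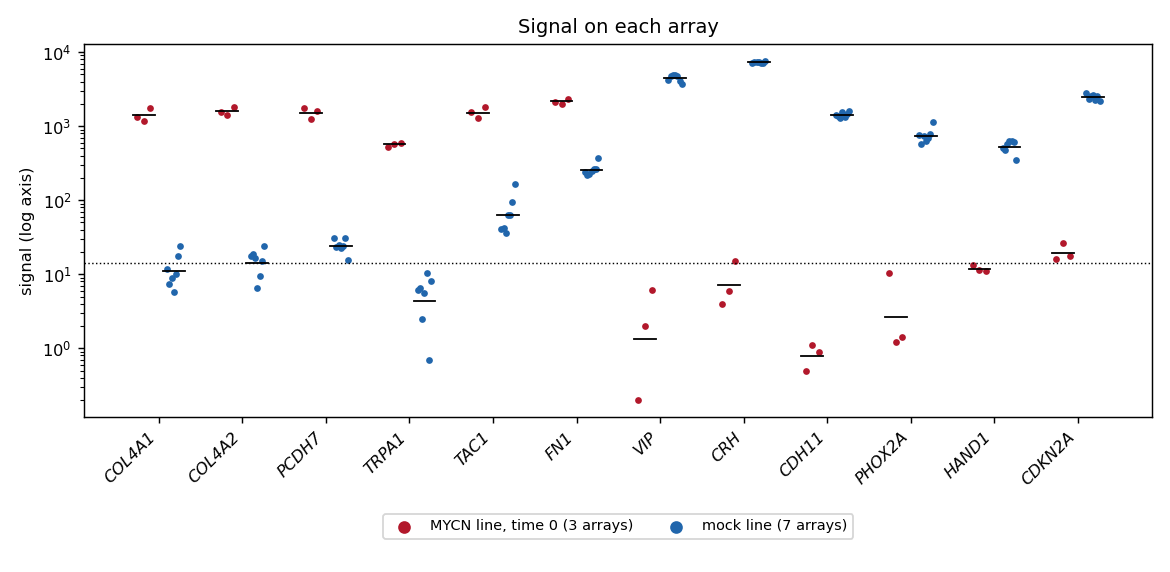
Signal on each array (log axis) for 12 genes, with the 3 MYCN line arrays of time 0 in red to the left and the 7 mock arrays in blue to the right of each gene, horizontal bars at the geometric means and a dotted line at the filter signal of 14.3. For the first 6 genes the MYCN line arrays lie above all mock arrays, and for VIP, CRH, CDH11, PHOX2A, HAND1 and CDKN2A they lie below them. All but FN1 and HAND1 were picked among genes with non-overlapping arrays.

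Genes of the noradrenergic neuroblast state were lower in the MYCN line: of 13 listed genes tested, 0 were called higher and 10 lower, with a median difference of -1.30, against -0.02 over all genes tested. The median lay between -1 and -1.29 with equal array medians, quantile normalization, the bioD block and within the bioD level, with 9 called lower in each, and 1 higher with equal medians and with the block. Another 8 listed genes with a probe set were under the filter. Over all genes tested, 18.3% were called higher and 21.1% lower, and the counts of this list and of those below are to be set against these shares. PHOX2A, a homeodomain factor of sympathetic precursors, read 10.5, 1.2 and 1.4 in the MYCN line, against 582, 739 and 1133 in mock cells, at least 52.2-fold lower. HAND1, a helix-loop-helix factor, read 13.5, 11.4 and 11 in the MYCN line, against 346, 582 and 633, at least 37.1-fold lower. For both genes all 3 arrays were dim in the MYCN line and all 7 were bright in mock cells. Non-overlapping arrays were a condition for picking PHOX2A, and HAND1 was picked by its p-value, so this split is no separate result. GATA2 averaged 93.5 ± 15 in the MYCN line and 563 ± 44.9 in mock cells, 6.06-fold lower (adjusted p = 3.19e-10). GATA3 and ISL1 had log2 differences of -1.46 and -1.42, and HAND2 of -0.77. TH and DBH, the enzymes that define noradrenaline synthesis, were dim in both lines, at 0.8 to 1.6 and 0.9 to 5.2 in the MYCN line, against 0.6 to 6.6 and 0.8 to 8.7 in mock cells. The summed signal of the 11 noradrenergic markers with a probe set was 644 to 734 in the MYCN line and 2580 to 3270 in mock cells, with 5 and 8 of them above the filter signal.

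The mesenchymal list did not move one way. Of 21 genes tested, 10 were called higher and 5 lower (median 0.14). All 9 mesenchymal markers with a probe set were above the filter signal in both lines, and their summed signal was 10500 to 11200 in the MYCN line and 9340 to 10600 in mock cells, overlapping slightly. RUNX2, a skeletal transcription factor, read 596, 467 and 491 in the MYCN line, against 121, 136 and 200 in mock cells, 3.41-fold higher (adjusted p = 9.63e-07). WWTR1, the transcriptional coactivator TAZ, averaged 642 ± 31.4 in the MYCN line and 364 ± 12.4 in mock cells. THY1, a surface glycoprotein, averaged 224 ± 20.8 in the MYCN line and 737 ± 46.4 in mock cells, and the markers TWIST1 and SNAI2 were also lower, by log2 differences of -0.87 and -0.55. PRRX1 (-0.05) and ZEB1 (0.14) were not called.

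Markers of other cell types were near background in both lines with few exceptions. The Schwann cell markers SOX10, S100B and CDH19 were all dim, with a summed signal of 4.6 to 9.4 in the MYCN line and 6.3 to 20.2 in mock cells. Of 4 genes tested on the wider Schwann and neural crest list, 3 were lower, among them the endothelin receptor EDNRB, 17.5 ± 4.3 in the MYCN line and 107 ± 12.4 in mock cells. The sign of another, NGFR (-0.99), turned to 0.19 with the bioD split as a block. The 5 haematopoietic markers summed to 32.2 to 51 in the MYCN line and 230 to 299 in mock cells. PTPRC, the leukocyte phosphatase CD45, made up most of the mock sum, at 17.9, 10.3 and 34.9 in the MYCN line, against 198, 227 and 262. CD3E, CD14 and LYZ were at or near the dim limit in both lines. Endothelial markers summed to 58.2 to 79.9 in the MYCN line and 38.7 to 93 in mock cells, mostly from PECAM1, which was not called, and CDH5 and VWF were dim in both. Epithelial markers summed to 2110 to 2750 in the MYCN line and 1970 to 3910 in mock cells, which came from the keratins KRT18 and KRT8, with EPCAM and CDH1 dim in both. Whether other cells have a part in any difference between the lines was not tested.

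The neuropeptide and secretory granule list shows that peptide genes differed in both directions. Of 10 tested, 3 were called higher and 6 lower (median -1.28). Beside VIP and CRH on the lower side stood TAC1 and NTS on the higher side. TAC1, the precursor of substance P, read 1539, 1275 and 1811 in the MYCN line, against a lowest value of 36.4, a median of 63.5 and a highest value of 165 in mock cells, 24.2-fold higher (adjusted p = 2.51e-07). NTS, neurotensin, read 317, 557 and 394 in the MYCN line, against 20.1, 27.1 and 33.2, 15.3-fold higher (adjusted p = 1.97e-09). The MYCN line arrays thus exceeded all mock arrays for these 2 peptides while VIP and CRH ran the other way. For TAC1, VIP and CRH, non-overlapping arrays were a condition of being picked. The 250 bases before the starts of VIP, TAC1 and NTS are printed because these peptide genes differ in opposite directions (RefSeq, GRCh38.p14, plus strand, VIP chr6:152750547-152750796, TAC1 chr7:97731836-97732085, NTS chr12:85874045-85874294). Capitals mark TGACG, the core of the cyclic AMP response element, and CACGTG, the E-box that MYC and MAX dimers bind, on either strand. TGACG occurs 2 times in VIP, 1 time in TAC1 and 2 times in NTS, and in 21.7% of all 27305 promoter windows. CACGTG occurs 1 time in TAC1 and 0 times in the other two, and in 6.49% of all windows. G or C makes up 34% of the VIP window, 52.4% of TAC1 and 49.2% of NTS, against a median of 58% over all.
VIP: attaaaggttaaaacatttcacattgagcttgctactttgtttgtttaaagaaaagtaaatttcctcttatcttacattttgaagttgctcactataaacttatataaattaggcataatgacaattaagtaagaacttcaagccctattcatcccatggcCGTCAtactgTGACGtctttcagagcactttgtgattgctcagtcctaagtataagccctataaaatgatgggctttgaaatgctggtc
TAC1: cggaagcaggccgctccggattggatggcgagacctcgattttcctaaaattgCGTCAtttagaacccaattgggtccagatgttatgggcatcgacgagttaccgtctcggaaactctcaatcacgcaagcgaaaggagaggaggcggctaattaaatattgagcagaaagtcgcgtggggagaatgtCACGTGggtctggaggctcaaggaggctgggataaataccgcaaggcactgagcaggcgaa
NTS: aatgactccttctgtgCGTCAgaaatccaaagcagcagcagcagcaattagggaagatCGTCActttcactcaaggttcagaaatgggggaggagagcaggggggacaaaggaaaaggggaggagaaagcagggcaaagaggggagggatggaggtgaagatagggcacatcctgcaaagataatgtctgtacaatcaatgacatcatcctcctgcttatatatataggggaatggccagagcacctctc

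Neuronal cytoskeleton and synapse genes were mixed, with 7 of 16 tested called higher and 4 lower (median 0.18). MAP2, a dendritic microtubule protein, read 744, 1147 and 927 in the MYCN line, against 186, 210 and 228 in mock cells, 4.48-fold higher (adjusted p = 5.44e-09). SYT1, the calcium sensor of synaptic vesicles, averaged 195 ± 21.3 in the MYCN line and 623 ± 37.2 in mock cells, 3.2-fold lower.

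The surface and matrix of the cells differed widely. Of 27 adhesion molecules tested, 5 were called higher and 17 lower (median -0.64), against 18.3% and 21.1% of all genes. L1CAM, a neural adhesion molecule, read 17.1, 14.9 and 17.5 in the MYCN line, against 634, 644 and 795 in mock cells, 41.3-fold lower (adjusted p = 5.64e-14). With equal array medians 11 adhesion genes were lower and 6 higher, where 1213 and 4821 of all 11865 genes were. Collagens split 5 higher to 6 lower of 15, since COL4A6, another type IV chain, averaged 288 ± 39.1 in the MYCN line and 1460 ± 126 in mock cells, 5.1-fold lower, opposite to COL4A1 and COL4A2. Matrix glycoproteins split 6 to 6 of 18. FN1, fibronectin, read 2139, 2006 and 2343 in the MYCN line, against 222, 250 and 373 in mock cells, 8.34-fold higher (adjusted p = 5.26e-10), while FBN1, the microfibril protein fibrillin, was 7.53-fold lower and SPARC 2.09-fold lower. Among matrix proteases and inhibitors, 4 of 15 were higher and 7 lower. PLAU, the urokinase protease, read 669, 276 and 396 in the MYCN line, against 33.3, 58.5 and 61.1, 8.24-fold higher, whereas the metalloprotease ADAMTS9 was at least 6.59-fold lower and the inhibitor TIMP1 1.95-fold lower.

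Among guidance genes 5 of 21 were called higher and 9 lower (median -0.31, and -0.01 with equal array medians). SEMA3C, a secreted semaphorin, was 2.75-fold lower, the receptor PLXNA2 2.4-fold lower and the ephrin EFNB2 at least 4.01-fold lower.

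Growth factor signalling genes changed in both directions. Of 27 receptor tyrosine kinases and ligands, 9 were called higher and 7 lower (median 0.04). PDGFRA, a platelet-derived growth factor receptor, read 390, 428 and 393 in the MYCN line, against 61.2, 74.5 and 170 in mock cells, 4.75-fold higher (adjusted p = 1.34e-05), and its family's ligand PDGFD was 3.2-fold higher. In the insulin-like growth factor list, 5 of 14 were higher and 4 lower. IRS1, the adaptor below the receptor, read 456, 397 and 450 in the MYCN line, against 52.3, 55.7 and 60.8, 7.73-fold higher (adjusted p = 5.66e-11). The receptor IGF1R itself averaged 157 ± 10.6 in the MYCN line and 542 ± 91.3 in mock cells, 3.42-fold lower, and the binding protein IGFBP2 was 3.89-fold lower. Receptor and adaptor of the same pathway therefore differed in opposite directions.

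Among Wnt regulators the secreted antagonists DKK1 and SFRP1 were lower. DKK1, which blocks the LRP co-receptors, read 172, 65.8 and 99.9 in the MYCN line, against 1262, 1380 and 1489 in mock cells, 13.2-fold lower (adjusted p = 3.01e-09). SFRP1, which binds Wnt proteins, averaged 304 ± 122 in the MYCN line and 3250 ± 724 in mock cells, 11.1-fold lower. LGR5, an R-spondin receptor, was 3.18-fold lower. The list as a whole split 7 higher to 6 lower of 16. In the TGF-beta and BMP list, 6 of 23 were higher and 7 lower. The receptor BMPR1B was at least 7.97-fold lower, the BMP-responsive repressor ID2 averaged 617 ± 90.1 in the MYCN line and 1220 ± 132 in mock cells, and TGFBI was 1.54-fold lower. In the Notch pathway, 1 of 12 was higher, the feedback regulator NRARP (at least 2.06-fold), and 4 were lower. Among these were the target gene HEYL (2.52-fold) and the list member HES6 (at least 2.51-fold, with overlapping arrays).

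Mitotic genes were modestly higher in the MYCN line. Of 21 mitotic genes tested, 20 were called higher and 0 lower, against 18.3% and 21.1% of all genes, with a median of 0.46. With equal array medians the list's median was 0.76, against 0.28 over all genes. AURKB, a mitotic kinase, read 246, 214 and 260 in the MYCN line, against 74.4, 108 and 126 in mock cells, 2.34-fold higher (adjusted p = 1.18e-05). UBE2C, a ubiquitin-conjugating enzyme of mitotic exit, averaged 1440 ± 115 in the MYCN line and 955 ± 79.5 in mock cells, and TPX2, a spindle assembly factor, 1290 ± 39.5 and 918 ± 52.3. Within the bioD level 8 of the 21 were called higher, against 8.51% of all genes, and with the mock time 0 array alone 4 were, against 5.27%. Of 26 genes of G1/S and DNA replication, 15 were higher and 5 lower (median 0.45). The 5 lower genes were CDKN2A, CDKN1B, CCND1 and, named after their values were seen, the kinase CDK6 (-0.78) and the replication helicase subunit MCM3 (-0.26). The direction of MCM3 depends on the scaling, since equal array medians moved the median over all genes from -0.02 to 0.28. The inhibitor CDKN1B averaged 385 ± 18.9 in the MYCN line and 927 ± 27.7 in mock cells. The cyclin CCND1 read 260, 201 and 280 in the MYCN line, against 677, 711 and 894, 3.02-fold lower (adjusted p = 6.19e-08).

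In the MYC network list, which holds partners and antagonists of MYC proteins, 3 of 9 were higher and 0 lower (median 0.08). MNT, a MAX-binding repressor, averaged 210 ± 43.3 in the MYCN line and 132 ± 21.6 in mock cells. The signs of MGA (0.46) and MLX (0.29) turned under other treatments of their probe sets. For ribosome biogenesis, a process that MYC proteins are known to drive, 5 of 20 were higher and 2 lower (median 0.22). The called share was 35%, and 33.3% for the MYC network, both under the 39.4% of all genes. With the bioD split as a block 11 ribosome biogenesis genes were higher, where 20.5% of all genes were. GAR1, a component of small nucleolar ribonucleoproteins, averaged 1600 ± 94.5 in the MYCN line and 834 ± 91.9 in mock cells. PES1 and NOP16, which act in large subunit assembly, were 1.62-fold and 1.36-fold higher. Of 23 nucleotide, polyamine and one-carbon synthesis genes, 11 were higher and 2 lower, a called share of 56.5%. The mitochondrial folate enzyme MTHFD2 averaged 1470 ± 175 in the MYCN line and 825 ± 84.4 in mock cells, and the serine synthesis enzyme PSPH was 1.49-fold lower. None of the tested genes on these 3 lists was called at 2-fold or more.

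Of 24 interferon response genes tested, 12 were called higher and 1 lower, while 11 did not pass (median 0.35), against 18.3% higher and 21.1% lower of all genes. IFITM1, an antiviral membrane protein, read 258, 440 and 256 in the MYCN line, against 27.2 to 51 in mock cells, 8.37-fold higher (adjusted p = 5.9e-08). IFIT1, another interferon-induced gene, averaged 95.3 ± 9.67 in the MYCN line and 38.7 ± 3.01 in mock cells. Within the bioD level 6 of the 24 were higher and 1 lower, where 8.51% and 11.6% of all genes were. In antigen presentation by MHC class I, 5 of 17 were higher and 0 lower (median 0.29). The called share was 29.4%, under the 39.4% of all genes, and none was called at 2-fold or more. Among the 5 were the peptide transporter subunit TAP2 at 1.77-fold and the immunoproteasome subunits PSMB9 and PSMB8 at 1.52-fold and 1.33-fold. Of 13 complement genes tested, 2 were higher and 8 lower (median -0.91), against 18.3% and 21.1% of all genes. C7, a component of the membrane attack complex, read 175, 206 and 383 in the MYCN line, against 2525 at the lowest and 5244 at the highest mock array, 13.5-fold lower (adjusted p = 1.93e-08). The protease C1S was 4.19-fold lower and C6 at least 4.93-fold lower. Cytokine and chemokine genes split 7 to 7 of 19. The receptor LIFR was 2.64-fold higher, IL1R1 3.8-fold lower and IL13RA2 2.26-fold lower.

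HOX genes, which record the body position of a cell's origin, split 7 higher to 5 lower of 15 (median 0.33), and 8 to 2 with the bioD split as a block. HOXB3 read 57.8, 48.9 and 65.6 in the MYCN line, against 2.1 to 17.1 in mock cells, at least 4-fold higher, and HOXC9 was 2.4-fold higher, while HOXD8 was 1.75-fold lower. Imprinted genes, expressed from a single parental allele, were called higher at 3 and lower at 7 of 13 (median -0.51). The noncoding RNA MEG3 was at least 7.68-fold lower and NAP1L5 1.42-fold lower, while PHLDA2 was 2.02-fold higher. Of 13 cancer-testis antigens, 4 were higher and 4 lower: MAGEC1 averaged 903 ± 77.6 in the MYCN line and 303 ± 29.3 in mock cells, its relative MAGEC2 was 3.38-fold lower and MAGEB2 at least 3.24-fold lower.

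Stress and metabolic lists gave no common direction. Among p53 targets 2 of 17 were higher and 4 lower (median -0.21, and 0.09 with equal array medians), with the death receptor FAS 1.99-fold higher, and TIGAR and TP53INP1 1.98-fold and 2.12-fold lower. Immediate early and AP-1 genes were higher at 8 and lower at 6 of 23: KLF2 was 3.52-fold higher, JUN 2.09-fold lower and NR4A1 at least 2.81-fold lower, though its sign turned to 0.11 without the probe sets of the suffixes _s_at and _x_at. Glycolysis and hypoxia genes split 6 to 6 of 25, with PFKL 2.29-fold higher, TPI1 1.46-fold lower and the oxygen-regulated hydroxylase EGLN3 2.3-fold lower. Cholesterol synthesis genes split 2 to 2 of 13, with the sterol carrier STARD4 1.68-fold higher, and the synthesis enzymes MVK and SC5D 1.64-fold and 1.48-fold lower. Amino acid and endoplasmic reticulum stress genes split 3 to 3 of 16. CEBPB was 1.54-fold higher, with overlapping arrays, DNAJB9 1.92-fold lower and SLC6A15 1.84-fold lower.

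**Figure D3:**
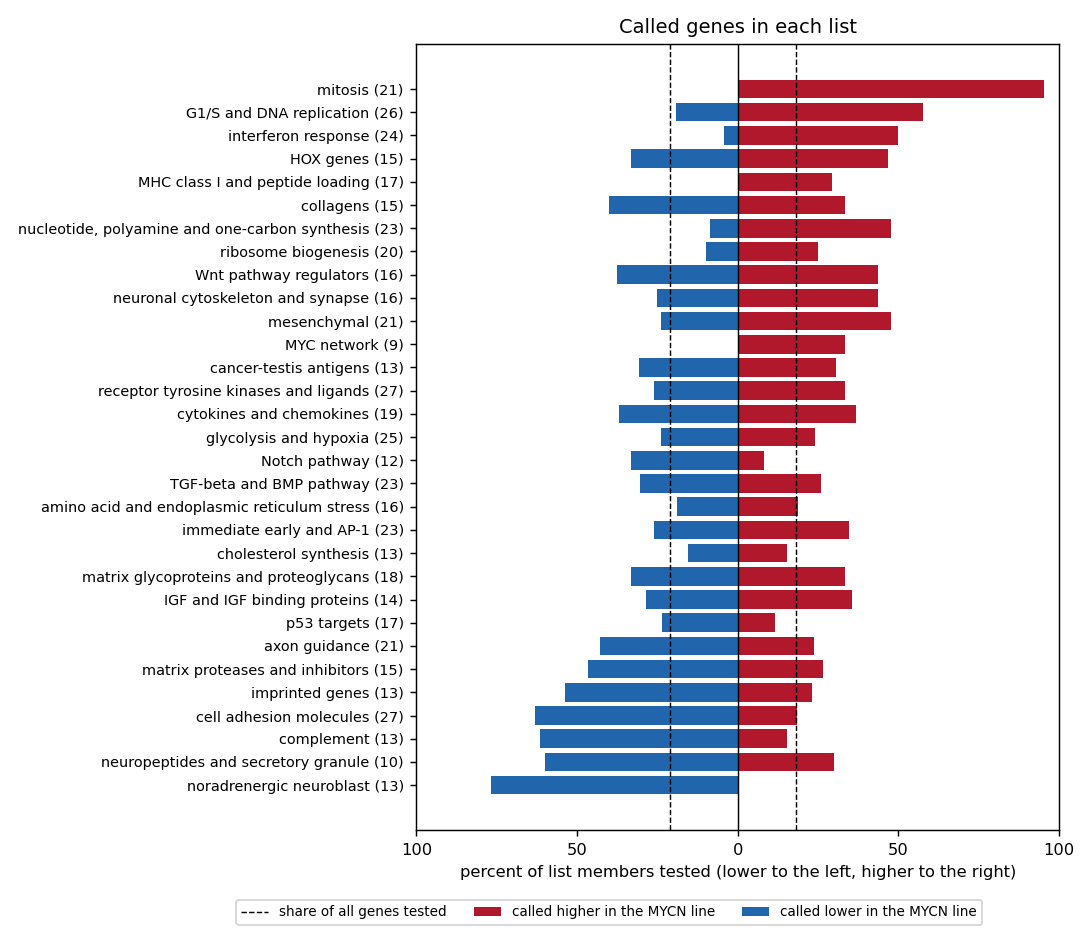
Share of each list's tested genes called higher (red, to the right) and lower (blue, to the left) in the MYCN line at time 0 against the mock line, in percent, with the number tested in brackets and dashed lines at the shares over all genes, 18.3% and 21.1%. Mitosis shows the largest share higher (20 of 21) and the noradrenergic list the largest share lower (10 of 13); lists with fewer than 9 tested genes are left out.

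Some called genes lay side by side. With the 11838 tested genes that could be placed in the order of the RefSeq gene table (GRCh38.p14), 259 runs of 3 or more consecutive genes were all called in 1 direction, 98 higher and 161 lower, the longest with 17 genes. Of all genes tested, 18.3% were called higher and 21.1% lower, so some runs of 3 or more occur without any link between neighbours. How many was not tested. The longest ran from IFNAR1 to CBR3, with all 17 genes higher and a median log2 difference of 0.89. It holds the interferon receptor subunits IFNAR1 (0.85) and IFNGR2 (1.11), the purine synthesis enzyme GART (0.89), the splicing factor SON (0.70), the calcineurin inhibitor RCAN1 (1.01), and the carbonyl reductases CBR1 (1.3) and CBR3 (2.17). At 16 of the 17 the MYCN line arrays lay above all mock arrays, against 15.5% of all genes. With the bioD block 17 were called higher, against 20.5% of all genes, and within the bioD level the run's median was 0.98. The run was picked by calls on these same arrays, so these values are no separate result. Another run of 12 genes from RRP1B to UBE2G2 was higher by a median of 1.08, and includes the ribosome biogenesis factors RRP1B (0.66), RRP1 (1.08) and PWP2 (0.94), the glycolytic enzyme PFKL (1.19) and the channel TRPM2 (2.77). Runs of 11 genes from WDR81 to CLUH and of 11 from P2RX1 to PSMB6 were each higher by a median of 0.89.

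The longest lower runs stretched from EPS8 to ETFRF1, with 16 genes and a median of -0.81, and from BHLHE41 to FAR2, with 14 genes and a median of -1. The first holds the transcription factor SOX5 (-3.49), the phosphodiesterase PDE3A (-1.84), the branched-chain aminotransferase BCAT1 (-1.45) and lactate dehydrogenase LDHB (-0.56). The second holds the kinase STK38L (-2.18), the calcium channel ITPR2 (-1.19), the clock factor BMAL2 (-1.14) and the ribosomal protein MRPS35 (-0.75). PPFIBP1 (-1.03) belongs to it as well, but its sign turned to 0.08 without the probe sets of the suffixes _s_at and _x_at. Within the bioD level the medians of these 2 runs were -0.93 and -1.04. With equal array medians 11 and 13 of their genes were called lower, where 1213 of all 11865 genes were. Both runs were picked by calls on the same arrays, so these values are no separate result. A run of 12 genes from EGLN1 to TOMM20 was lower by a median of -0.64, in which COA6 (-0.23) turned to 0.07 with equal array medians and 5 of the 12 remained called. The cell cycle inhibitor CDKN1B (-1.27) lies in a run of 10 genes from LRP6 to HEBP1, lower by a median of -0.95. A run of 8 from BEX1 to TCEAL4 was lower by a median of -1.01.

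Over windows of 25 consecutive genes the median difference lay between -0.48 and 0.26 for the middle 95% of windows, with a median of -0.01. The windows with the most extreme medians lie beyond these limits by construction. Among them were those from IFNAR1 to DYRK1A (median 0.85, 23 of 25 genes higher) and from RECQL to FAR2 (median -0.93, 23 of 25 lower). The window ending at TSR1 (1.01) and that from MED11 to PIMREG (0.93) were others. The medians of the 15 longest runs kept their direction at every later time, with sizes that differed. The IFNAR1 to CBR3 run had medians of 0.86, 0.81, 0.82, 0.80, 0.74, 0.99 and 0.95 at times 0, 4, 8, 24, 48, 96 and 192, each the MYCN line minus the mock array of the same time. The BHLHE41 to FAR2 run had -0.98, -1.03, -1.06, -0.99, -1.06, -1.17 and -1.23. At time 192 and time 0 the medians were 1.48 and 0.84 for RRP1B to UBE2G2, -1.67 and -0.92 for LRP6 to HEBP1, and 0.64 and 1.1 for P2RX1 to PSMB6. The mock arrays in these values are those of the main comparison, while the MYCN line arrays of times 4 to 192 are not in it.

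**Figure D4:**
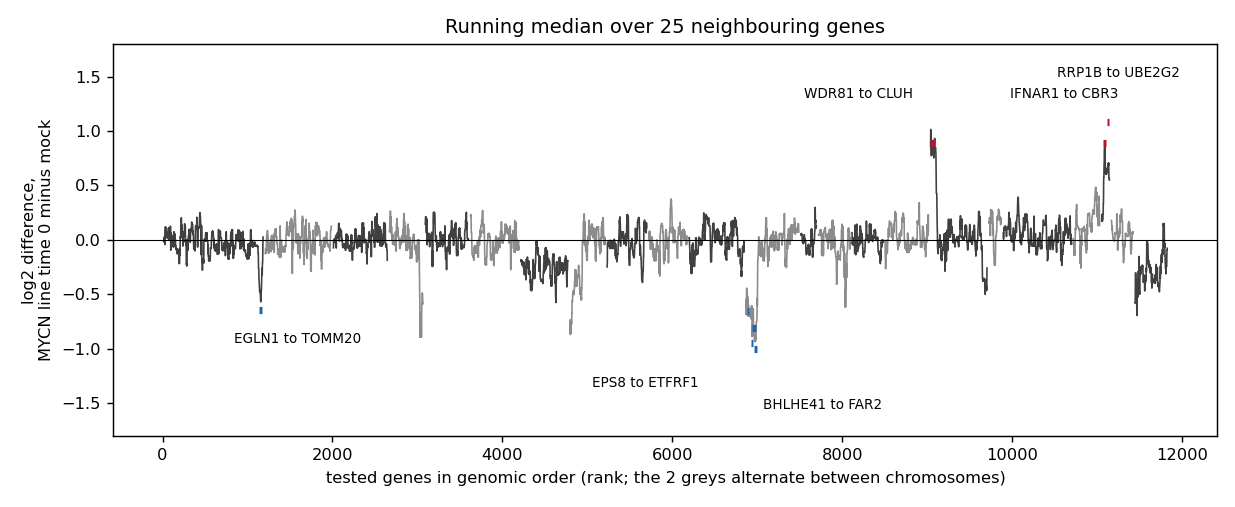
Running median of the log2 difference (MYCN line time 0 minus mock line) over 25 neighbouring tested genes, in genomic order by rank, with the greys alternating between chromosomes and coloured bars at the medians of the 9 longest runs, red higher and blue lower. Most of the line stays between -0.48 and 0.26, and the IFNAR1 to CBR3 and RRP1B to UBE2G2 bars lie at 0.89 and 1.08, against -0.81 for EPS8 to ETFRF1 and -1 for BHLHE41 to FAR2.

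Further probe sets of the genes called at 2-fold or more were counted where their mean reached the filter signal in either line. Of these 1094 probe sets, 1067 had the same sign as the set used. Probe sets dim in both lines were left out, and no such share was taken over all genes tested.

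Some genes that set the lines apart before the drug also changed in the MYCN line during induction. In the MYCN line 2750 genes were called at time 192 against time 4 (23.2%), 1350 higher (11.4%) and 1400 lower (11.8%), on arrays that share none with the comparison of the lines at time 0. Of the 390 genes at least 2-fold higher than mock, 30.3% were lower at time 192 than at time 4 and 10.5% were higher. Of the 793 at least 2-fold lower than mock, 18.5% were lower at time 192 and 8.07% were higher. Among genes at or above the filter signal in both lines these shares were 30.1% and 11.1% of 332 genes, and 24.7% and 10.3% of 572, against 12.1% and 11.8% of all 11293. The overlap itself was not tested. Without replicate 1 or replicate 2, the count of 2750 was 1073 or 1161. The share of the 390 that was lower was then 17.4% or 19.7%, that of the 793 was 10.7% or 9.84%, and that of all genes was 4.93% or 5.43%.

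TAC1 in the MYCN line averaged 44.3 ± 34.8 at time 192 and 1380 ± 547 at time 4 (SD, n = 3 each), a log2 change of -5.16 (adjusted p = 2.84e-05). The mock array of time 192 read 165, above all 3 MYCN line arrays, which reached 83.9 at most. That mock array stands apart from the others, which read 36.4 to 94.5, and at time 96 the MYCN line arrays, at 35.9 to 133, lay on both sides of the mock value of 94.5. FN1 averaged 274 ± 34.1 in the MYCN line at time 192 and 1870 ± 429 at time 4 (log2 change -2.75, adjusted p = 1.25e-06), against 373 on the mock array of time 192. The other mock arrays read 221.6 to 263.9 for FN1, which the MYCN line's 246 to 311.8 at time 192 overlapped. PDGFRA averaged 69 ± 36.6 at time 192 and 413 ± 24 at time 4, against 170 on the mock array of time 192 and 61.2 to 123.1 on the others. Its MYCN line arrays of time 192, at 35.6 to 108.2, overlapped those others. NTS averaged 55.3 ± 30.1 at time 192 and 391 ± 69.4 at time 4, against 33.2 on the mock array of time 192. CCND1, lower than mock before the drug, rose in the MYCN line to 633 ± 255 at time 192, against 253 ± 39.6 at time 4 (adjusted p = 0.00429). The mock array of time 192 read 694. JUN also rose, at 339 ± 125 at time 192 and 112 ± 25 at time 4, against 330 on the mock array.

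VIP, CRH and CDKN2A stayed dim or nearly so under induction. VIP averaged 1.43 ± 0.85 in induced cells of time 192 and 1.4 ± 1.15 in those of time 4, against 3725 on the mock array of time 192. CRH averaged 3.47 ± 1.59 and 7.37 ± 1.06 at these times, against 7597, and CDKN2A averaged 20.3 ± 3.44 and 15.9 ± 12, against 2207. None of these 3 was called between times 192 and 4. C7 and C1S moved further from the mock line. C7 averaged 4.17 ± 1.69 at time 192 and 197 ± 157 at time 4 of induction (adjusted p = 0.00104), against 5244 on the mock array, and C1S averaged 4.63 ± 3.19 and 65.5 ± 14.8 (adjusted p = 5.16e-05), against 452. COL4A1 fell by 0.72 on the log2 scale (SE 0.20, adjusted p = 0.013) and was still at 803 ± 241 at time 192, against 23.7 on the mock array.

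**Figure D5:**
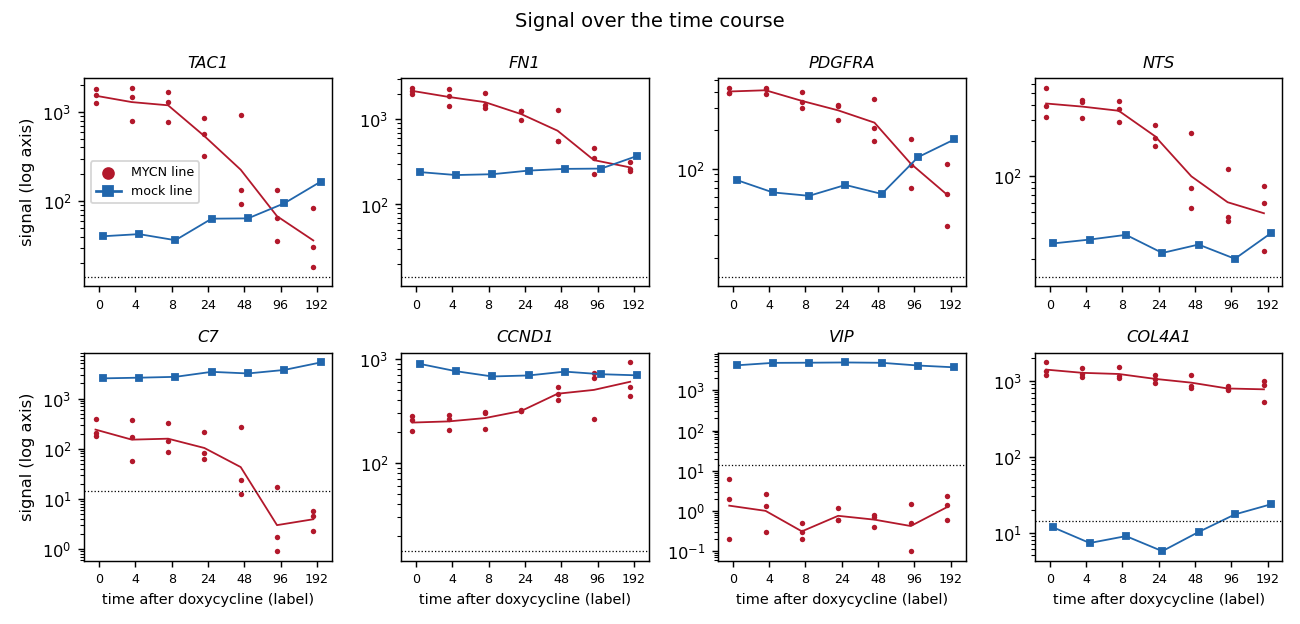
Signal (log axis) of 8 genes at times 0 to 192 after doxycycline (unit not stated), with the 3 arrays per time of the MYCN line as red points and a line through their geometric means, and the single mock array per time as blue squares. TAC1, FN1 and PDGFRA start above the mock line and end below its array of time 192, which reads higher for them than the other mock arrays. Their MYCN line arrays of time 192 overlap those other mock arrays. NTS comes down to 55.3 against 33.2, CCND1 comes up to 633 against 694, C7 moves away, VIP stays dim and COL4A1 stays above.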

How the data were processed

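Total RNA of both SK-N-AS derivatives was hybridised to Affymetrix arrays of 54675 probe sets, per the labels' protocols. MAS5 and GCOS are the tools given, per the submitters' processing notes. The deposited values are linear signal intensities, and their trimmed mean is 100 on every array, so the authors had scaled them. Detection calls were not used here, and the number of arrays limits the precision.

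Intensities were taken to log2 with 0.1, the smallest value above 0, in place of 91 values that were not positive. Platform annotation named 1 gene for 41091 probe sets, several for 1801 and none for 11783, of which 62 are controls. Each of 19775 genes was read from its brightest probe set by the mean of the 2 group means, and the 11865 genes above the 40th percentile of that mean were tested. The 3 arrays of the MYCN line at time 0 were compared with the 7 mock arrays with limma 3.58.1 in R 4.3.3 (lmFit, eBayes with a trend, 8 residual degrees of freedom, Benjamini-Hochberg adjustment over all genes tested). On simulated data with the real arrays' spread, 26, 44, 48 and 50 of 50 genes were recovered at log2 changes of 0.5, 1, 2 and 4. There were 14 false calls. The simulated noise was independent between arrays, with no bioD split and no drift with time. Only 50 genes at each size were changed, against 4680 called in the data, so these rates need not hold there. Time 192 against time 4 was fitted over the 21 arrays of the MYCN line. Its replicate numbers pair the arrays: deviations of same-numbered arrays correlated by 0.115, 0.107 and 0.262.

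Named genes are MYCN, MYC and MAX, the 14 largest differences each way among called genes with non-overlapping arrays and a bright group (mean signal of at least 100), up to 3 called members per list by p, and the 5 longest runs of neighbours. CDKN2B, MTAP, other run and window ends and genes under the filter were named after their values were seen, as were the genes of other runs. Members and the 35 lists were chosen with earlier results of these data known. Alternatives covered the mock arrays used, the bioD split, scaling, filter, offset, probe set choice and each array left out. Leaving out arrays in the comparison with mock time 0 alone was chosen after seeing the data.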

Additional observations from a re-analysis of the deposited data

Results flagged for a closer look

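For 27 of the 185 named genes, 1 of the 7 mock arrays lay far from the other 6 (Dixon's gap ratio above 0.568), and 20 of these were the array of time 192. Chance alone flags about 1 in 20 groups. Without the time 192 array 5118 genes were called between the lines, against 4680 with it.

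The mock array of time 192 was high for several genes. PHOX2A read 1133.3 there, against 582.1 to 773.7 on the other mock arrays. SYT4 read 1948.7 (others 1065.5 to 1304.5), FN1 372.7 (others 221.6 to 263.9) and SFRP1 4848.9 (others 2781.8 to 3268.3). MEG3 read 303.4 (others 66 to 119.4), PSMB8 450.2 (others 364.5 to 378.8) and SLC6A15 150.9 (others 88.2 to 106.2). CEBPB read 1067.2 (others 694.5 to 781.6), IFNGR2 1020.9 (others 651.2 to 745) and MAP3K21 199.3 (others 98.8 to 133).

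The same array was low for others. HSD3B1 read 919.5 (others 1486.6 to 1809.9), NSG1 1008.7 (others 1478.3 to 1712.3) and PHLDA2 138.9 (others 244.9 to 301.7). STRAP read 1742.4 (others 2182.9 to 2434.9), ETNK1 138.8 (others 205.2 to 240.1), BCAT1 541.6 (others 885.3 to 1000.5) and INTS13 549 (others 730.9 to 876.1). CFAP410 read 7.5 (others 16.1 to 26.5), TSPEAR-AS2 5.7 (others 15.3 to 23.1) and EGLN1 314.4 (others 432.8 to 518).

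On the mock array of time 0, CCND1 read 894.5 (others 676.8 to 760.4) and SYT1 699.9 (others 584.5 to 627.1), while TCEAL7 read 550.3 (others 664.7 to 739.8), PSPH 561.2 (others 680.9 to 716.7) and BMPR1B 75.3 (others 116.3 to 125.4). HES6 read 22.7 at time 24 (others 36.6 to 41.9), and CMAS 118.9 at time 48 (others 157.7 to 182.3).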

How the results depend on the processing

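The 4680 genes called between the lines numbered 3409 (without replicate 1 of the MYCN line) to 5118 (without the mock array of time 192) when each array was left out in turn. Of the other 15 settings, 13 gave counts within 1.5 times of it. The exceptions were 1414 against the mock time 0 array alone, which has 2 residual degrees of freedom, and 2390 within the bioD level, where the MYCN line has 1 array that is assumed to vary like the mock arrays. Leaving out each MYCN line array, chosen after seeing the data, moved the 1414 to between 1194 and 1643. No paired analysis was possible because the mock arrays carry no replicate numbers. Between times 192 and 4 the replicate block gave 3891 genes against 2750 without it, equal array medians gave 1640, and leaving out a replicate gave 1073 to 2592. The cause of these shifts was not tested. Of 4523 values of named genes under the alternatives, 4351 kept direction and side of the threshold, 158 missed it, 3 newly passed it and 11 changed direction. With the bioD block, MLX was -0.02 and NGFR 0.19. Within the bioD level MAX was 0. With equal array medians COA6 was 0.07. With the mean of probe sets MGA was -0.05 and MLX -0.24. Without the probe sets of the suffixes _s_at and _x_at, MAX was 0, MGA -0.18, MLX -1.07, NR4A1 0.11 and PPFIBP1 0.08. Signals under about 14.3 are near background and limit folds of on-off genes to lower bounds.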

Other observations

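Among the 7910 genes under the expression filter, 25 had a mean signal of at least 50 in either line, and MYCN was among them. They are named here after their values were seen, and the adjusted p-values are limma's without the filter. ZIC1, a zinc finger transcription factor of neural development, read 91.7, 106.9 and 115.5 in the uninduced MYCN line, against 0.6 to 1.5 in mock cells, at least 7.31-fold higher (adjusted p = 8.62e-08). NOS3, endothelial nitric oxide synthase, read 65.4, 112.1 and 87.4, against 0.6 to 1.9, at least 6.05-fold higher. The matrix genes SPOCK1 and POSTN (periostin) read 72.7 to 82.7 and 55.4 to 86.5, against 1.4 to 2.7 and 0.5 to 7.4. On the lower side, PKP2, a desmosomal plaque protein, read 0.5, 0.5 and 0.9 in the uninduced MYCN line, against 93.8 to 154.9 in mock cells, at least 7.77-fold lower (adjusted p = 8.54e-11). THBS2, a matrix thrombospondin, read 1.6, 4.9 and 0.7, against 76.7 to 130.1, at least 7.21-fold lower. INSM2, a relative of INSM1, read 1.4, 2.2 and 12.6, against 38.5 to 65.6. For each of these genes the arrays of the lines did not overlap. A mean of at least 50 in either line, for a gene under the filter, requires a low mean in the other. The wide gaps and small p-values therefore follow from how these genes were picked and are no separate result.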
